A study of Rattus norvegicus with 8 samples.

Results

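Genes for integrins, selectins, vascular adhesion molecules, claudins and gap junction proteins were followed in the inflamed spinal cord. The 41 genes were chosen by symbol, with earlier results of these data known. They are integrin subunits and other genes with an integrin-type symbol, and endothelial selectins with the selectin ligand PSGL-1. The others are adhesion molecules of the immunoglobulin type, claudins, connexins and pannexins, with Icam1 and Gjb1 left out. The 41 are part of 7830 genes that the array annotation names with a single symbol. Of the 41, 38 had at least 1 probe set bright enough to be tested. The data are 8 exon arrays, each from the whole spinal cord of 1 female, virgin Lewis rat aged 16 weeks. Experimental autoimmune encephalomyelitis (EAE) had been induced in 4 rats by 50 µg of myelin basic protein (MBP) from guinea pig brain in incomplete Freund's adjuvant with mycobacteria (named M.Butiricium in the labels) at 4.0 mg/ml, given under the skin at the tail base, and the cords were taken on day 13, at peak disease. As controls served 4 age-matched littermates that had received no injection, so that every EAE value holds the effects of the adjuvant and of the antigen together. A probe set reads an exon or part of one, and a gene's value is the mean log2 intensity of its probe sets. Whole cords were read, so more cells of a type and more RNA per cell cannot be told apart.

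Integrins are receptors made of an alpha and a beta chain that bind matrix or other cells, and the chains that pair with beta 2 are found on leukocytes. During inflammation leukocytes roll on selectins of the vessel wall, bind endothelial molecules such as VCAM-1 and ICAMs through integrins, and cross a wall whose endothelial cells are sealed by claudins and related junction proteins. Connexins and pannexins form channels between cells or through the membrane: Gja1 (Cx43) and Gjb6 (Cx30) couple astrocytes, and Gjd2 (Cx36) forms electrical synapses between neurons.

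The arrays had nearly equal means and SDs of 2.11 to 2.26, and correlations between arrays ran from 0.890 to 0.984. Probe sets with several symbols or none were left out, and Itgb2, Itgal, Itga4, Pecam1, Ocln and Tjp1 were not analysed here. Control 195 had the narrowest spread and the highest olfactory receptor median (3.77, against 3.16 to 3.49 on the others). Olfactory receptor genes, which the cord is taken not to express, gave the background level against which other genes were read. Of the motor neuron and cord markers listed, Slc5a7 alone was measured, and it lay above background in both groups. Slc5a7 fell by 0.78 in EAE (limma adjusted p = 0.0137). Of the markers of the cord's own cells, 7 of 7 for neurons, 8 of 8 for astrocytes and 8 of 8 for oligodendrocytes lay above background in both groups. Of 3 measured erythroid markers Hba-a2 fell by 2.43 and Hbb by 2.26 in EAE, and Slc4a1 did not pass (-0.23, limma adjusted p = 0.138).

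Of the 38 genes tested with limma, 6 rose and 4 fell at a Benjamini-Hochberg adjusted p under 0.05. The called share was 26.3%, while 31.1% of all 6961 genes tested were called (13.7% rose and 17.4% fell), so as a set these genes were not called more often than the rest of the array. Their median change, EAE minus control, was -0.10 on the log2 scale, against -0.11 over all genes. Only 3 of them changed by 1 or more on the log2 scale: Itgam, Selplg and Vcam1. The other rises were in Gja1, Icam2 and Itgb1, and the falls were in Cldn14, Panx2, Itgb3bp and Gjd2. The values of EAE and control rats did not overlap in 10 of the 38 genes, or 26.3%, against 33.2% of all genes. With control 195 and EAE 218 left out together, 7 genes rose and 6 fell, where 30.4% of all genes were called. Without control 195 alone 6 rose and 6 fell, where 33.6% of all genes were called.

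**Figure D1:**
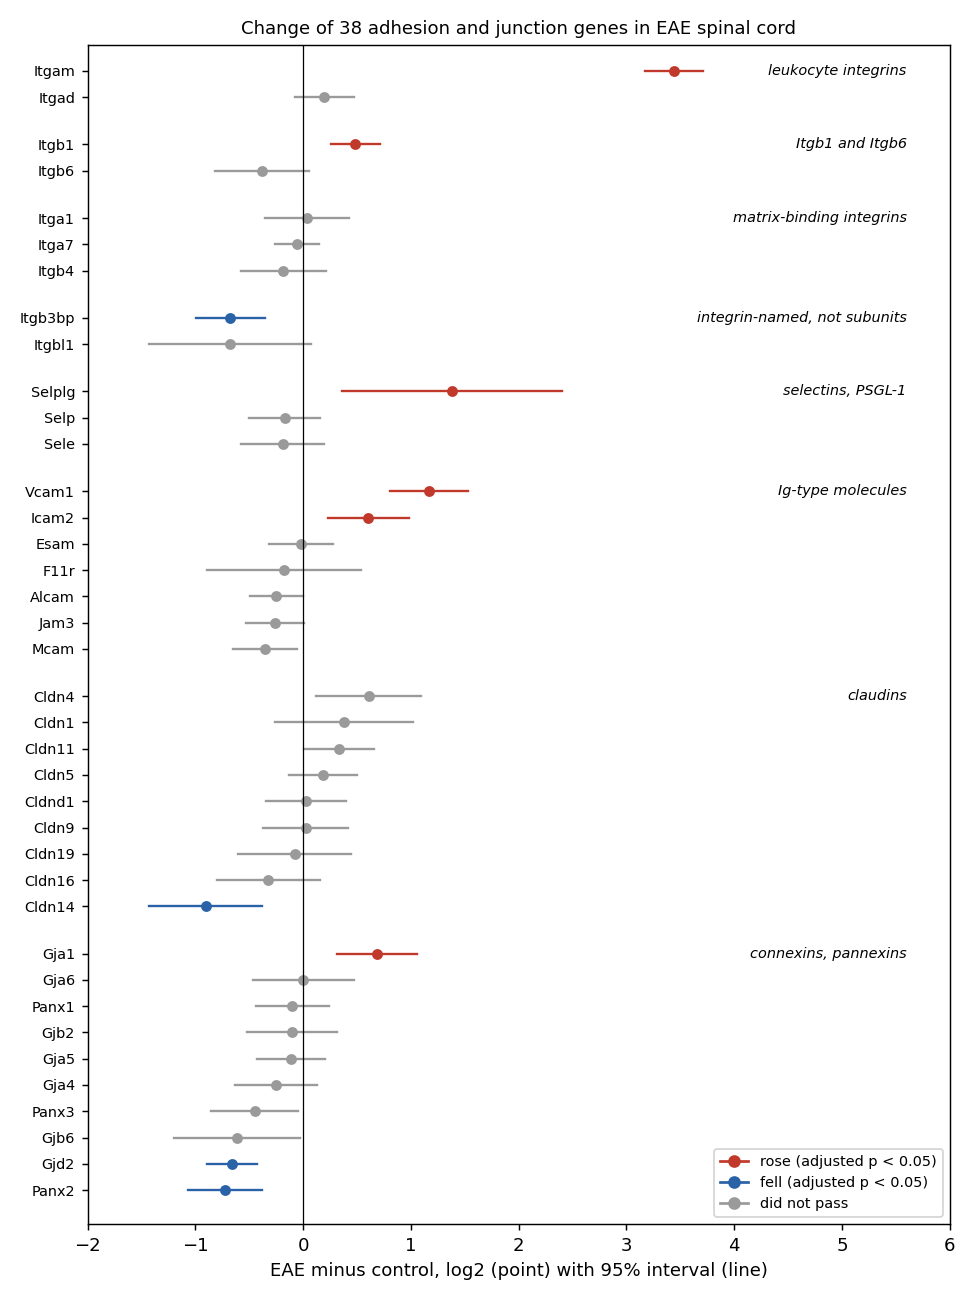
Change of each of the 38 tested genes, EAE minus control, on the log2 scale (x axis), with its 95% interval from limma, grouped by role (y axis). Red points rose and blue points fell at an adjusted p under 0.05, and grey points did not pass. Itgam stands at 3.44, and every other change lies between -0.91 and 1.38.

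Promoters are shown for 3 of the genes that rose, Itgam, Vcam1 and Gja1, because each holds a match to a short motif searched here. RefSeq promoter windows (build GRCr8) of 300 bases around the gene start were found for 27 of the 41 genes. Capitals mark matches on either strand to GAGGAAG, a core bound by the myeloid factor PU.1, GGGNTTTCC, a form of the NF-kappaB site, or TGANTCA, the AP-1 site. The Itgam window is chr1:192089342-192089641, plus strand, that of Vcam1 is chr2:206742734-206743033, minus strand, and that of Gja1 is chr20:36302314-36302613, plus strand.
Itgam: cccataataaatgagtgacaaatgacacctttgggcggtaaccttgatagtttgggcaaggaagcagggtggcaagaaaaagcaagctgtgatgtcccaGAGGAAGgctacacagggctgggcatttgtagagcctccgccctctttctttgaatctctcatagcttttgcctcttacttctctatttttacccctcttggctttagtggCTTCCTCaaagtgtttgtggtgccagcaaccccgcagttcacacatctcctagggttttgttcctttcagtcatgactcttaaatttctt
Vcam1: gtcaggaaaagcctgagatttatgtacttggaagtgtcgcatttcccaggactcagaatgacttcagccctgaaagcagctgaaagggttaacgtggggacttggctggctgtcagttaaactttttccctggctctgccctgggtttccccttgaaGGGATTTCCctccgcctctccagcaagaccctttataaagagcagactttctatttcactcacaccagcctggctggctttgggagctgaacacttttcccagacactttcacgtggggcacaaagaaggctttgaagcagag
Gja1: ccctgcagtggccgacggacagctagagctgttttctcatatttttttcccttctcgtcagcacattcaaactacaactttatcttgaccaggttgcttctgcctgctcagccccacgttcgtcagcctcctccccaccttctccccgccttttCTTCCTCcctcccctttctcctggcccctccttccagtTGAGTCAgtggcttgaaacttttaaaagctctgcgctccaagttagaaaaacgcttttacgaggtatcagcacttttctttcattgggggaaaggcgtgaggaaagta
The PU.1 core was present in 12.4% of all 33469 promoter windows and in those of 7 of the 27 genes. Of these Itgam and Gja1 rose, Cldn16, Gja5, Itgb6 and Itgbl1 did not pass, and Gja3 was not measured. The NF-kappaB form was present in 1.56% of all windows and in that of 1 of the 27 genes, Vcam1. The AP-1 site was present in 7.33% of all windows and in those of 2 of the 27 genes, Gja1 and F11r, of which F11r did not pass. The window of Itgb1, which rose, held no match to any of these motifs. A match describes the letters of the window and says nothing of binding in these cords.

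Among leukocyte integrin subunits Itgam, the alpha M chain of Mac-1 (CD11b) carried by monocytes, macrophages, microglia and neutrophils, had by far the largest change of the set. Its log2 value was 8.28, 8.13, 8.11 and 8.08 in the EAE rats 217, 218, 219 and 241, against 4.80, 4.94, 4.56 and 4.52 in the control rats 193, 194, 195 and 196. All EAE rats lay far above all controls, and the spread within each group was small beside the gap. The change was 3.44 ± 0.12 (SE, as after every later change or difference, n = 4 each; limma adjusted p = 2.41e-08), which ranked 50 by size among all 6961 genes. The control mean (4.71) lay at the array background, taken as the 95th percentile over 1048 genes of olfactory receptors (4.70 in EAE, 4.77 in controls). Measured against the control limit Itgam was at least 10.4-fold higher in EAE.

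The rise of Itgam was seen in every probe set. All 30 of its probe sets passed on their own in limma, with changes from 2.15 to 5.29 and a median of 3.29. They did not rise equally, as limma's diffSplice F test passed (adjusted p = 3.08e-18). The largest change was in probe set 5840472, which read 10.75 in EAE and 5.47 in controls. The smallest was in probe set 6183767, which read 9.13 in EAE and 6.98 in controls, the highest control mean of its 30 probe sets. Whether this inequality comes from splicing or from how single probe sets respond was not tested.

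Itgad, the alpha D chain that also pairs with beta 2 and that is known from tissue macrophages, did not pass. Its difference was 0.20 ± 0.12 (95% interval -0.08 to 0.47, adjusted p = 0.253), with gene values of 5.05 ± 0.09 in EAE and 4.85 ± 0.21 in controls (SD, n = 4 each). Only 15 of its 32 probe sets were bright enough to be used, and they were unequal (diffSplice adjusted p = 4.87e-05): 3 rose, 1 fell and 11 did not pass. Probe set 6563830 rose by 1.58 ± 0.24 to 6.12 in EAE, against 4.54 in controls, and probe set 5649822 fell by 0.82 ± 0.22, to 4.48 in EAE against 5.29 in controls. With brighter probe sets alone (filter at the 50th percentile) the gene changed by 0.75 (adjusted p = 0.0271), and without control 195 by 0.30 (adjusted p = 0.0483), while without control 193 it differed by 0.13 (adjusted p = 0.432). Itgad is closely related to other alpha chains of this group, and reading of their RNA by its probe sets was not tested.

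**Figure D2:**
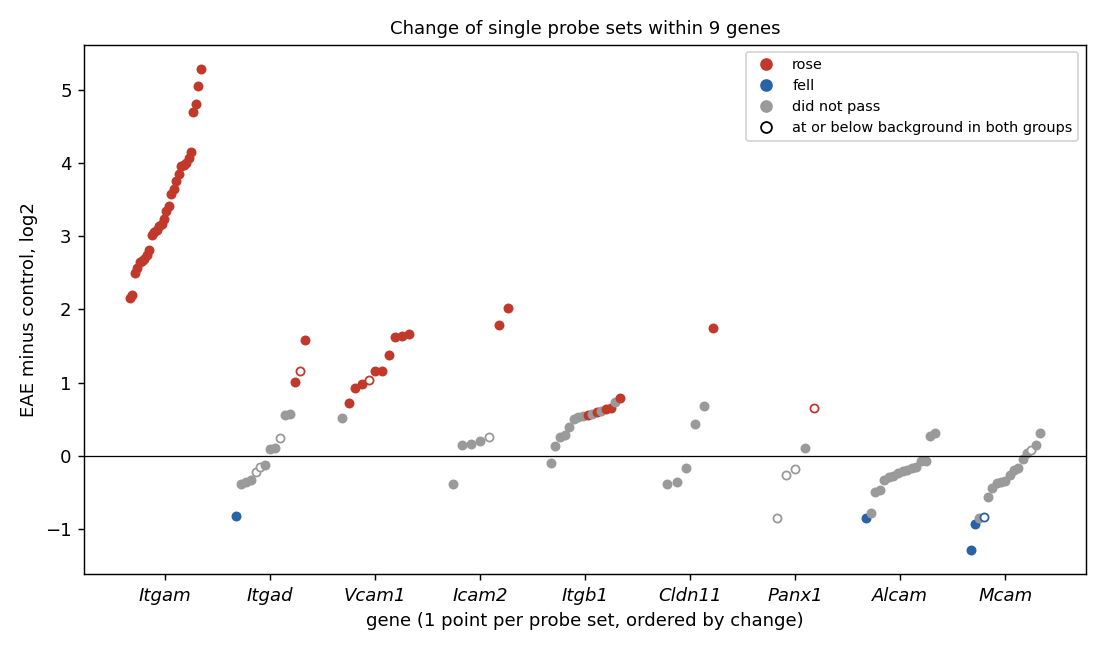
Change of every usable probe set, EAE minus control on the log2 scale (y axis), in 9 genes (x axis), ordered within each gene from the lowest to the highest. Red rose, blue fell and grey did not pass in limma, and open circles lay at or below background in both groups. All 30 probe sets of Itgam and 10 of 11 of Vcam1 rose, whereas 2 of 7 probe sets of Icam2 and 1 of 6 of Cldn11 did.

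Markers of leukocytes moved with Itgam in the same arrays. All 8 measured genes of the leukocyte list rose, and their mean value per array lay from 9.17 to 9.34 in EAE and from 6.31 to 6.59 in controls. All 8 measured genes of the list of monocytes, macrophages and microglia rose as well (9.05 to 9.33 in EAE, 5.91 to 6.13 in controls). Of 8 T cell markers 6 rose (5.92 to 6.08 in EAE, 4.18 to 4.61 in controls). Of 3 neutrophil markers none passed in limma, and S100a9 and Il8rb lay at background in both groups. Itgam is known from several of these cells, and the part of each in its change was not tested.

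**Figure D3:**
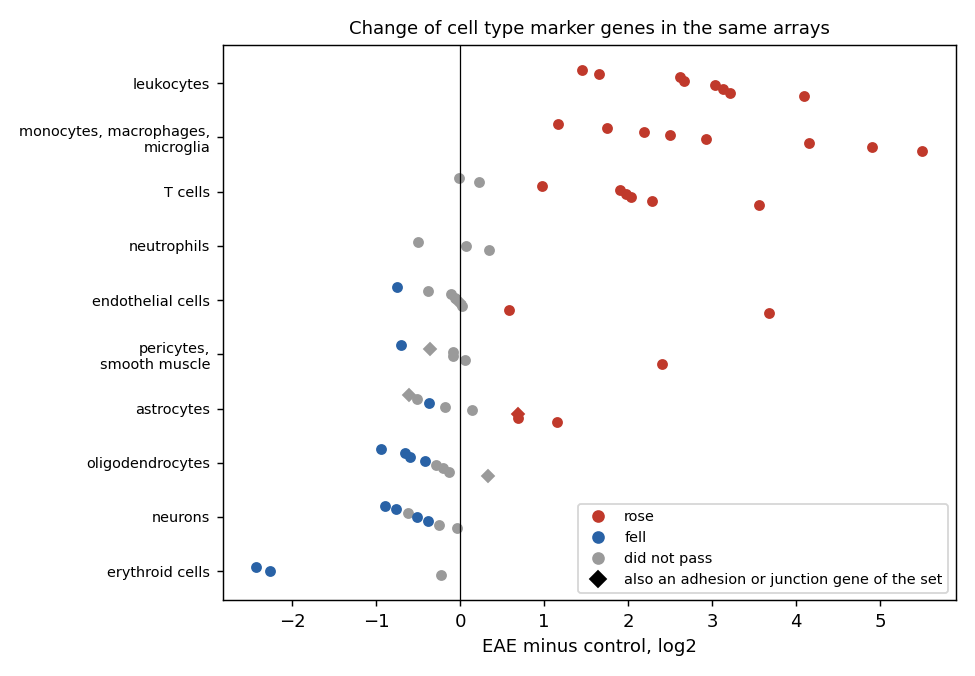
Change of cell type marker genes, EAE minus control on the log2 scale (x axis), by cell type (y axis), with 1 point per gene. Red rose, blue fell and grey did not pass in limma, and diamonds mark genes that are also members of the adhesion and junction set. The lists of leukocytes and of monocytes, macrophages and microglia lie wholly to the right of 0. T cell markers do so too except Zap70 (-0.01), while neutrophil, endothelial and astrocyte markers lie on both sides.

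Of the other integrin subunits tested here, Itgb1 alone rose. Itgb1, the beta 1 chain shared by most matrix receptors and by the VCAM-1 receptor, had log2 values of 9.12, 9.34, 9.02 and 9.19 in EAE rats 217, 218, 219 and 241, against 8.73, 8.64, 8.63 and 8.73 in control rats 193, 194, 195 and 196. The groups did not overlap, and Itgb1 rose by 0.48 ± 0.10 (1.40-fold, adjusted p = 0.00533). Of its 16 probe sets 5 rose and none fell, with changes from -0.10 to 0.79, and diffSplice did not pass (adjusted p = 0.264). None of the 16 lay at or below background in both groups.

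Of the alpha chains that pair with beta 1, only Itga1 and Itga7 were among the genes tested here, and neither passed. Itga1, a collagen receptor chain, differed by 0.04 ± 0.17 (95% interval -0.35 to 0.43) over 27 probe sets. Itga7, a laminin receptor chain of muscle and vessel walls, differed by -0.06 ± 0.09 (-0.26 to 0.15) over 21 probe sets. A rise of more than 0.43 for Itga1, or of more than 0.15 for Itga7, lies outside these intervals. Itgb4, which pairs with alpha 6 to bind laminin, differed by -0.18 ± 0.18 (-0.58 to 0.21). Itgb6, an epithelial partner of alpha v, differed by -0.38 ± 0.19 (adjusted p = 0.166), with -0.54 without control 193 (adjusted p = 0.0369) and -0.22 without control 195 (adjusted p = 0.333). These chains were dim: 15 of 27 probe sets of Itgb4, 13 of 21 of Itga7 and 11 of 27 of Itga1 lay at or below the probe set background in both groups. So did 5 of 8 probe sets of Itgb6.

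Of the integrin-named genes that are not subunits, Itgb3bp, a centromere protein first found bound to beta 3, fell. It had log2 values of 5.54, 5.55, 5.70 and 5.99 in EAE rats 217, 218, 219 and 241, against 6.15, 6.32, 6.36 and 6.66 in control rats 193, 194, 195 and 196. No EAE rat reached the lowest control, and the change was -0.68 ± 0.14 (adjusted p = 0.00569). Of its 7 probe sets 3 fell and none rose, the lowest being probe set 6085435 at -1.23 ± 0.23. Itgbl1, an integrin beta-like protein, had a difference as large (-0.68 ± 0.34) with a wider spread, and did not pass (adjusted p = 0.157). Of its 12 probe sets 3 fell. Its gene values ran from 4.94 to 6.05 in EAE and from 5.59 to 6.91 in controls, so the groups overlapped.

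Among genes of rolling adhesion the selectins did not pass and their ligand rose by a thin margin. Selplg, PSGL-1 of leukocytes, was read by 1 usable probe set of 2, with log2 values of 6.20, 4.01, 5.71 and 4.74 in EAE rats 217, 218, 219 and 241, against 4.44, 3.05, 3.58 and 4.06 in control rats 193, 194, 195 and 196. EAE 218 lay below controls 193 and 196, so the groups overlapped. The change was 1.38 ± 0.46 (adjusted p = 0.0436), and no fold is given because the EAE mean (5.17) is under the probe set background of controls (5.21). The call was lost without control 194 (1.14, adjusted p = 0.112), control 195 (1.31, 0.0755), control 196 (1.47, 0.0708), EAE 217 (1.04, 0.108), EAE 219 (1.20, 0.108) or EAE 241 (1.52, 0.0561). Sele, E-selectin of activated endothelium, differed by -0.19 ± 0.17 (95% interval -0.58 to 0.19) over 4 of 12 probe sets. Selp, P-selectin of endothelium and platelets, differed by -0.17 ± 0.15 (-0.50 to 0.15) over 6 of 17. Of 2 measured platelet markers, Pf4 rose (1.42) and Ppbp did not pass. In both selectins most usable probe sets, 3 of 4 and 4 of 6, lay at or below background in both groups, which limits what these arrays can show of them.

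Of 7 immunoglobulin-type adhesion molecules Vcam1 and Icam2 rose and none fell, or 28.6% called, against 31.1% of all genes. Vcam1, the endothelial and astrocytic ligand of alpha 4 integrins, had log2 values of 7.58, 7.41, 7.16 and 7.31 in EAE rats 217, 218, 219 and 241, against 6.55, 6.23, 5.80 and 6.23 in control rats 193, 194, 195 and 196. Every EAE rat lay above every control. The change was 1.16 ± 0.16 (2.24-fold, adjusted p = 0.00048). Of its 11 probe sets 10 rose, by 0.72 to 1.66, and the remaining one, 6091017, differed by 0.52 ± 0.21 (adjusted p = 0.11). diffSplice did not pass for Vcam1 (adjusted p = 0.185).

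**Figure D4:**
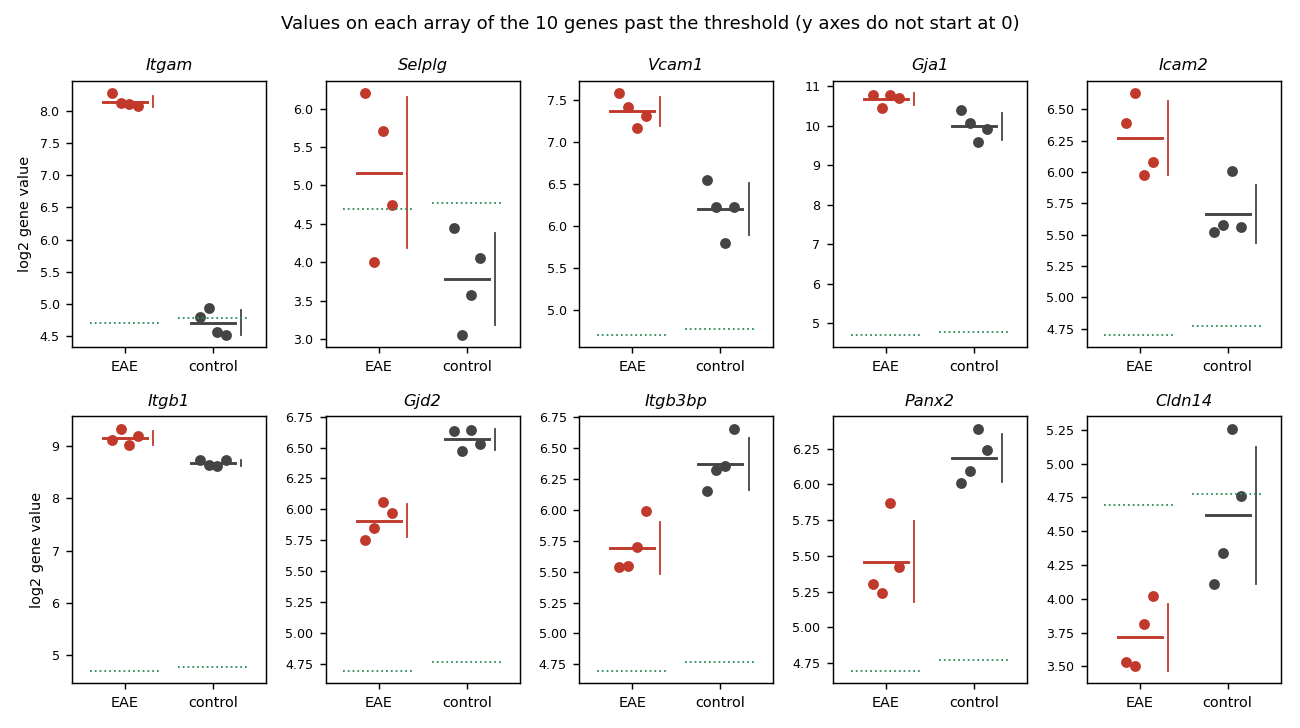
Log2 gene value (y axis) on each array for the 10 genes that passed, EAE in red and controls in grey (x axis). Horizontal lines are group means, vertical lines are ± 1 SD (n = 4 each) and dotted green lines are the gene background of each group. Selplg and Icam2 overlap between the groups, and Cldn14 lies mostly at background.

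Icam2, a ligand of beta 2 integrins that resting endothelium carries, had log2 values of 6.39, 6.63, 5.98 and 6.08 in EAE rats 217, 218, 219 and 241, against 5.52, 5.58, 6.01 and 5.56 in control rats 193, 194, 195 and 196. EAE 219 lay just below control 195, the highest control, and all other EAE rats lay above every control. The change was 0.60 ± 0.17 (1.52-fold, adjusted p = 0.0219). Only 2 of its 7 probe sets rose, 6690571 by 2.03 ± 0.30 and 6432845 by 1.79 ± 0.33, and the other 5 differed by -0.39 to 0.26 without passing. diffSplice passed for Icam2 (adjusted p = 1.02e-05). The gene did not pass with the median of its probe sets (0.41, adjusted p = 0.119), or without control 194 (0.58, 0.0586), control 196 (0.57, 0.062), EAE 217 (0.56, 0.0633) or EAE 218 (0.48, 0.0556).

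The other 5 molecules of this type did not pass. Mcam (CD146), found on endothelium and pericytes, read 6.18 to 6.45 in EAE and 6.45 to 7.01 in controls. The highest EAE and the lowest control rat were equal to 2 decimals. Mcam differed by -0.35 ± 0.13 (adjusted p = 0.0702) and passed in 5 of 18 alternative settings, such as without control 195 (-0.44, adjusted p = 0.0261). Quantile normalization (-0.38, adjusted p = 0.0378), median centring (-0.42, 0.0223) and array weights (-0.38, 0.0116) were others. Of its 17 probe sets 3 fell, with probe set 6196142 lowest at -1.29 ± 0.23 and 5898340 highest at 0.31 ± 0.29, and diffSplice passed (adjusted p = 0.0127). Alcam (CD166), an adhesion molecule of neurons and endothelium, was lower in every EAE rat (9.28 to 9.60) than in any control (9.63 to 9.90), by -0.25 ± 0.11 (adjusted p = 0.117). Its 16 probe sets ran from -0.84 ± 0.23 in 5823599, which alone passed, to 0.31 ± 0.17 in 6064602 (diffSplice adjusted p = 0.0348). The junctional molecules Jam3 (-0.26 ± 0.12), F11r (JAM-A, -0.18 ± 0.32) and Esam (-0.02 ± 0.13, 95% interval -0.31 to 0.28) had adjusted p from 0.128 to 0.934, and F11r lay at background in both groups. Of 7 probe sets of Esam 4 lay at or below background in both groups.

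Vessel markers did not move in 1 direction beside these genes. Of 8 endothelial markers, Esam included, 2 rose (Ly6c by 3.68 and Slc2a1 by 0.59), 1 fell (Slco1c1, -0.76) and 5 did not pass. Their mean per array lay from 6.19 to 6.44 in EAE and from 5.85 to 5.99 in controls. That order turned without Ly6c, which was read by 1 of 2 probe sets with a control mean (3.55) at background. The mean of the other 7 lay from 6.09 to 6.25 in EAE and from 6.19 to 6.43 in controls. Of 6 markers of pericytes and smooth muscle, Mcam included, Tagln rose (2.40), Rgs5 fell (-0.70) and 4 did not pass. The part of vessel cell numbers or leukocyte numbers in the values of Vcam1, Icam2 and Mcam was not tested.

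Of 10 genes of the claudin group 9 were measured, and 1 passed, or 11.1%, against 31.1% of all genes. Claudins are membrane proteins that seal tight junctions. Cldn5, the main claudin of brain and cord endothelium, had log2 values of 5.69, 5.64, 5.74 and 5.94 in EAE rats 217, 218, 219 and 241, against 5.70, 5.33, 5.86 and 5.39 in control rats 193, 194, 195 and 196. The groups overlapped, and the difference was 0.18 ± 0.14 (adjusted p = 0.358). Its 95% interval, -0.13 to 0.50, leaves out a fall of more than 0.13. None of its 4 probe sets passed, with changes from -0.23 to 0.52.

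Cldn11, the claudin of oligodendrocytes and myelin, differed by 0.33 ± 0.15 (adjusted p = 0.113), with values of 8.25 to 8.66 in EAE and 7.75 to 8.29 in controls. Its probe sets were unequal (diffSplice adjusted p = 0.000611): 6151181 rose by 1.75 ± 0.39, to 9.14 ± 0.10 in EAE against 7.40 ± 0.94 in controls (SD, n = 4 each), while 5 others did not pass and ran from -0.38 in 6145552 to 0.68. With the median of its probe sets the gene passed (1.04, adjusted p = 0.0067). Of 8 oligodendrocyte markers, Cldn11 included, none rose and 4 fell.

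Cldn14, a claudin known from the kidney and inner ear, had log2 values of 3.53, 3.50, 3.81 and 4.02 in EAE rats 217, 218, 219 and 241, against 4.11, 4.34, 5.26 and 4.76 in control rats 193, 194, 195 and 196. Its change of -0.91 ± 0.24 passed (adjusted p = 0.0156), but both of its usable probe sets and both group means lay at or below background, so that the difference is one between background readings. Cldn4, read by 1 probe set at background in both groups, differed by 0.61 ± 0.22 (adjusted p = 0.0611) and passed without EAE 218 (0.79, adjusted p = 0.0144). It was 0.40 without EAE 219 (adjusted p = 0.123) and 0.12 without the filter on dim probe sets (adjusted p = 0.679). Cldn1 (0.37), Cldnd1 (0.03), Cldn9 (0.02), Cldn19 (-0.08), a claudin of Schwann cells, and Cldn16 (-0.32) had adjusted p from 0.28 to 0.937. Cldn3 had no usable probe set.

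Of 12 connexin and pannexin genes 10 were measured, and 1 rose and 2 fell. The called share was 30%, against 31.1% of all genes. Gja1, the Cx43 connexin of astrocytes, had log2 values of 10.77, 10.46, 10.78 and 10.70 in EAE rats 217, 218, 219 and 241, against 10.39, 10.06, 9.58 and 9.93 in control rats 193, 194, 195 and 196. The lowest EAE rat lay just above the highest control. The rise was 0.69 ± 0.17 (1.61-fold, adjusted p = 0.0113), although neither of its 2 probe sets passed among all probe sets (0.95 ± 0.31 with adjusted p = 0.0529, and 0.42 ± 0.15 with adjusted p = 0.0771).

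Gjb6 (Cx30), the other main astrocyte connexin, had log2 values of 7.73, 7.12, 8.18 and 7.83 in EAE rats 217, 218, 219 and 241, against 8.92, 8.28, 7.79 and 8.33 in control rats 193, 194, 195 and 196. Control 195 lay among the EAE rats. The difference was -0.61 ± 0.26 (95% interval -1.20 to -0.03, adjusted p = 0.104), and it passed without control 195 (-0.79, adjusted p = 0.0348). Leaving out control 193 gave -0.42 (adjusted p = 0.21), and leaving out EAE 218 gave the same value to 2 decimals (adjusted p = 0.24). The median over its probe sets gave -0.13 (adjusted p = 0.85). Of its 3 probe sets, 5794569 fell by 1.37 ± 0.26, and the others differed by -0.13 and -0.34. The difference between Gja1 and Gjb6 was not tested. Of 8 astrocyte markers, both connexins included, 3 rose, 1 fell and 4 did not pass, with a mean per array of 9.004 to 9.445 in EAE and 8.74 to 9.48 in controls.

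Both falls were in genes known from neurons. Gjd2, the Cx36 connexin of neurons, had log2 values of 5.75, 5.85, 6.06 and 5.97 in EAE rats 217, 218, 219 and 241, against 6.63, 6.47, 6.64 and 6.53 in control rats 193, 194, 195 and 196. The groups lay well apart, with a change of -0.66 ± 0.10 (1.58-fold lower, adjusted p = 0.00105). Of its 3 probe sets 6409537 fell (-1.17 ± 0.20), and the others, at -0.43 and -0.38, did not pass, while diffSplice found no inequality past the threshold (adjusted p = 0.0704). With the median of its probe sets Gjd2 did not pass (-0.41, adjusted p = 0.0535).

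Panx2, the pannexin found mainly in the nervous system, had log2 values of 5.30, 5.24, 5.87 and 5.42 in EAE rats 217, 218, 219 and 241, against 6.01, 6.09, 6.39 and 6.24 in control rats 193, 194, 195 and 196. Every EAE rat lay below every control. The fall was -0.73 ± 0.15 (1.65-fold lower, adjusted p = 0.00555), and both of its usable probe sets fell (-0.75 and -0.70). Of 7 neuronal markers 4 fell and none rose in the same arrays, with a mean per array of 9.51 to 9.89 in EAE and 10.03 to 10.41 in controls. The part of neuron number or neuronal RNA content in the values of Gjd2 and Panx2 was not tested.

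The remaining channel genes did not pass. Panx1, the widely expressed pannexin, differed by -0.10 ± 0.15, with unequal probe sets (diffSplice adjusted p = 0.0163) that ran from -0.84 ± 0.32 in 6038356 to 0.65 ± 0.16 in 6714277, and 4 of its 5 probe sets were at background in both groups. Panx3, of bone and skin, differed by -0.45 ± 0.18 (adjusted p = 0.0836) and passed without EAE 218 (-0.62, adjusted p = 0.0124) but not without the filter on dim probe sets (-0.29, adjusted p = 0.132), with its 3 probe sets at background in both groups. Connexins of endothelium, Gja5 (-0.11 ± 0.14) and Gja4 (-0.25 ± 0.17), Gjb2 of the meninges (-0.10 ± 0.19) and Gja6 (0.00 ± 0.21) had adjusted p from 0.293 to 0.994. At background in both groups were 2 of 3 probe sets of Gja4 and 1 of 1 of Gja6. With brighter probe sets alone (filter at the 50th percentile) Gja5 had a change of the other sign (0.57, adjusted p = 0.0138). Gja3 and Gjb5 had no usable probe set.

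Across single probe sets, 74 of the 304 usable ones of these genes passed in limma (52 rose and 22 fell), or 24.3%, against 20.4% of all 62176 (10.2% rose and 10.2% fell). Of these, 30 belong to Itgam, and without Itgam 44 of 274 passed, or 16.1%. Probe sets of 1 gene read the same RNA and are not independent. Unequal change across probe sets was called in 7 of 30 genes with at least 3 probe sets (Itgam, Icam2, Itgad, Cldn11, Mcam, Panx1 and Alcam), or 23.3%, against 26.6% of 5563 genes. When the variance was estimated per probe set, 4 of the 30 genes were called (Itgam, Icam2, Itgad and Cldn11). Over all 5563 genes 651, or 11.7%, were called in that setting.

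Genes that work with these molecules were read from lists of partners. Over all 6961 genes tested 31.1% were called (13.7% rose and 17.4% fell), with a median change of -0.11. Of 15 measured genes of integrin activation and adaptors 4 rose and 3 fell, with a median change of 0.20. The adhesion kinase Ptk2b (Pyk2), prominent in leukocytes and neurons, rose from a control mean at background. Measured against the control limit Ptk2b was at least 2.54-fold higher in EAE. The leukocyte adaptor Skap2 rose by 1.40 ± 0.11, the integrin-linked kinase Ilk by 0.91 ± 0.19 and the GTPase Rap1b by 0.63 ± 0.12. Its relative Rap1a fell by 0.58 ± 0.16, the focal adhesion kinase Ptk2 by 0.51 ± 0.11 and the kindlin Fermt2 by 0.44 ± 0.12. The adjusted p of these 7 genes in limma ran from 3.94e-06 to 0.0228.

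Of 14 measured genes of selectin ligands and their synthesis 3 rose and 1 fell, with a median of 0.09, where 31.1% of all genes were called. Gcnt1, which branches the sugar chains that carry selectin ligands, rose (limma adjusted p = 0.000525). It was read by 2 of 4 probe sets, with the control mean at background. Measured against the control limit Gcnt1 was at least 2.90-fold higher in EAE. The sialyltransferase St3gal4 rose by 0.99 ± 0.24 and the fucosyltransferase Fut4 by 0.68 ± 0.13, whereas Glycam1 fell by 0.54 ± 0.16 (adjusted p = 0.0311). Fut7, the leukocyte fucosyltransferase for selectin ligands, differed by 0.30 ± 0.13 (adjusted p = 0.103) and lay at background in both groups. Of 9 measured junction partners 2 rose and 3 fell, with a median of -0.13, beside the same 31.1% of all genes. The rises were in the catenins Ctnnb1 (1.07 ± 0.25) and Ctnna1 (0.59 ± 0.13). The falls were in the scaffolds Mpdz (-0.53 ± 0.09), Pard3 (-0.36 ± 0.10) and Magi3 (-0.35 ± 0.11).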

How the data were processed

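Total RNA of 8 whole spinal cords (4 EAE, 4 control) was read on exon arrays. The deposited values are log2 intensities of 80939 probe sets, made by the authors with RMA in Affymetrix Expression Console and handled in Partek, per the submitters' processing notes, which give no versions, and RMA settings and genome build are not given in the sources used here. RMA normalizes arrays to one another, so a change of total RNA is not seen.

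Probe sets were named through the platform annotation, of which 76186 have 1 symbol, 550 several and 4203 none. Probe sets that reached log2 3.98, the 25th percentile over the whole table, on 4 or more arrays were used (62176). A gene's value is the mean of its used probe sets. Genes and probe sets were tested over all 8 arrays in R 4.3.3 by limma 3.58.1 (moderated linear model, no covariate), with Benjamini-Hochberg adjustment over all genes or probe sets and a threshold of 0.05, and unequal change across probe sets with diffSplice. Scripts were tested on simulated data. Background was the 95th percentile of 1048 olfactory receptor genes (log2 4.70 in EAE, 4.77 in control) or of their 2014 probe sets (5.13 in EAE, 5.21 in control). All olfactory probe sets entered these limits, without the brightness filter that other genes had passed. Limits from filtered olfactory probe sets were not computed, so folds given as at least a value hold against the unfiltered limit only. The number of arrays limits the precision. Labels name separate rats. The limma p-values set each group difference against the spread between rats, with a variance moderated over all genes or probe sets.

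The members and gene lists were chosen with earlier results of these data known. Members past the threshold were named, and in each role the largest change and the largest that did not pass, while other members were named after their values were seen. Alternatives were the filter, the normalization, the variance model, array weights, the gene summary and leaving out arrays. Centring on the median of tested genes, and endothelial markers without Ly6c, were added after seeing the data.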

Additional observations from a re-analysis of the deposited data

Results flagged for a closer look

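In 2 of 76 groups of 4 arrays, 1 per gene and condition, a single array stood apart by Dixon's criterion, which flags about 1 in 20 groups by chance. Panx3 read 5.16 on control 195, against 4.76 to 4.79 on the other controls. Icam2 read 6.01 on control 195, against 5.52 to 5.58 on the other controls. Control 195 is also the array with the narrowest spread and the highest olfactory receptor median.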

How the results depend on the processing

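Of the 10 called genes, 6 kept their call in all 18 alternatives: Itgam (changes of 3.35 to 3.52), Vcam1 (1.01 to 1.50), Gja1 (0.55 to 0.82), Itgb1 (0.41 to 0.54), Itgb3bp (-0.89 to -0.58) and Panx2 (-0.86 to -0.58). Cldn14 lost it without variance moderation (adjusted p = 0.0604 in limma's fit without eBayes moderation) and Gjd2 with the median of probe sets, while Icam2 lost it in 6 of 18 and Selplg in 7 of 17. With array weights 18 genes changed and 9 of them fell, where 43.8% of all genes were called. Leaving out each array in turn gave 8 to 12 changed genes, of which 4 to 6 rose and 4 to 6 fell, while the called share of all genes ran from 24.0% to 33.6%. Unequal probe sets were called in 4 genes when the variance was estimated per probe set (11.7% of all genes). With arrays left out they were called in 4 to 12 genes, 12 without control 193 (37.8% of all genes) and 4 without EAE 241 (17.2% of all genes). Selectin ligand genes changed numbered 2 without a filter (27.5% of all genes called) and 2 without variance moderation (28% of all genes). Junction partners changed numbered 3 with the median of probe sets (22.8% of all genes). With arrays left out they numbered 3 to 5, with 3 without EAE 218 (25.8% of all genes) or EAE 241 (25.1% of all genes). The share in the main fit was 31.1%. With the filter at the 50th percentile no value could be had for Cldn4, Cldn9, Cldn14, F11r, Gja6, Panx3 and Selplg, since no probe set of theirs was left. The causes of the other shifts were not tested. No paired analysis was possible because the rat numbers differ between the groups. Dim probe sets limit what can be seen of Sele, Selp, Cldn1, Cldn4, Cldn9, Cldn14, F11r, Panx1 and Panx3. The same limit holds for Itgb4, Itga7, Itgb6, Esam, Gja4 and Gja6.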
